A study of Mus musculus with 9 samples.

Results

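The genes described here encode the integrin alpha and beta subunits and the laminin chains, measured in cardiomyocyte cultures made from mouse embryonic stem cells. They were chosen by symbol, as every gene of the array annotation named Itga, Itgb, Lama, Lamb or Lamc with a member suffix, and each was represented by its brightest probe set, a group of short probes read as 1 value. The rule found 34 of the 18193 genes with a single symbol: 16 integrin alpha subunits, 8 integrin beta subunits and 10 laminin chains. Itga11 and Itgad were not analysed here.

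Each of 3 culture ages, day 10, day 20 and day 30, was read on 3 arrays. All 9 samples came from the synp line, derived from R1 embryonic stem cells of a 129X1 x 129S1 background, which carries a puromycin resistance gene (PAC) under the Ncx1 promoter. The differentiation cocktail of every sample held BMP4, Activin A, bFGF, FGF10 and VEGF, and puromycin was given from day 7, so that there was no unselected control and the comparisons are between ages of 1 line. The stated aim was to assess how far such cells mature in culture. Nothing in the labels tells whether a day's 3 replicates were differentiated separately, and the p-values therefore rest on a spread that may be purely technical. Every value below is a log2 signal, so that a difference of 1 is a 2-fold change, and signals of different genes are not set against each other because probe sets differ in brightness.

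Laminins are secreted heterotrimers of an alpha, a beta and a gamma chain that form the scaffold of basement membranes. Integrins are transmembrane receptors built of an alpha and a beta subunit, and the pairing decides which ligand is bound: laminins, collagens, or proteins with the short RGD motif such as fibronectin and vitronectin. In the heart, each cardiomyocyte is wrapped in a basement membrane, the alpha2 laminin chain is the main alpha chain of adult striated muscle, and the laminin receptors with alpha6 are followed by those with alpha7 as muscle differentiates.

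The arrays of a day correlated at 0.966 to 0.984 at day 10, 0.986 to 0.991 at day 20 and 0.984 to 0.991 at day 30 (Pearson, over all probe sets). Day 10 replicates 2 and 3 had lower signals of the spiked-in polyadenylated control RNAs (5.24 and 5.09, against 5.91 to 6.69 in the other arrays). Day 30 replicate 2 had the lowest 18S ribosomal RNA signal (10.27, against 12.07 to 13.44 elsewhere) and the highest 3 prime minus 5 prime difference of beta-actin (0.79). Markers of the labelled cell type were at high signal. The 8 cardiomyocyte genes Myh6, Myh7, Tnnt2, Actn2, Ttn, Nkx2-5, Ryr2 and Myl7 had a mean signal between 11.92 and 12.82 on every array. None of these genes passed the test in any comparison of days. Such signals do not give the share of cardiomyocytes in a culture. Markers of other cell types did move, and fibroblast genes averaged 12.02 to 12.21 at day 30. Values of these other lists are given at the end.

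Lama2, Lamb2 and Itga7 were at higher signal in the older cultures, and Lama1, Itga6 and Itgb3 at lower signal. At day 30 against day 10, 12 of the 34 genes passed at an adjusted p under 0.05, as did 21.1% of all genes. Of these, 9 rose and 3 fell, whereas 11.2% of all genes rose and 9.92% fell. The genes that rose were Lama2, Lama4, Lamb2, Lamb3, Itga7, Itga8, Itgb4, Itgb5 and Itgb6, and those that fell were Lama1, Itga6 and Itgb3. At day 20 against day 10, 7 rose and 3 fell, against 7.3% and 6.69% of all genes (14% in either direction). The members that rose were Lama2, Lama3, Lama5, Lamb2, Lamb3, Itga7 and Itgb5, and the same Lama1, Itga6 and Itgb3 fell. The 2 comparisons share the day 10 arrays. All adjusted p-values are from limma with the Benjamini-Hochberg method over all genes, or over all 34945 probe sets with 1 symbol where a further probe set of a gene is given.

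The median difference between day 30 and day 10 was 0.12 over the 34 genes and -0.03 over all genes. By family the medians were 0.90 for the 10 laminin chains, 0.23 for the 8 integrin betas and 0.01 for the 16 integrin alphas. Arrays of day 30 lay wholly above those of day 10 in 12 of the 34 genes and wholly below in 4, as they did in 17.4% and 18.8% of all genes. At day 20 against day 10 the number of members that rose dropped to 4 when day 10 replicate 2, day 20 replicate 1 or day 20 replicate 2 was left out, and to 3 when day 20 replicate 3 was. The number that fell was then 1 on leaving out day 20 replicate 2 or 3, and in the day 30 comparison it was 1 on leaving out day 30 replicate 3.

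**Figure D1:**
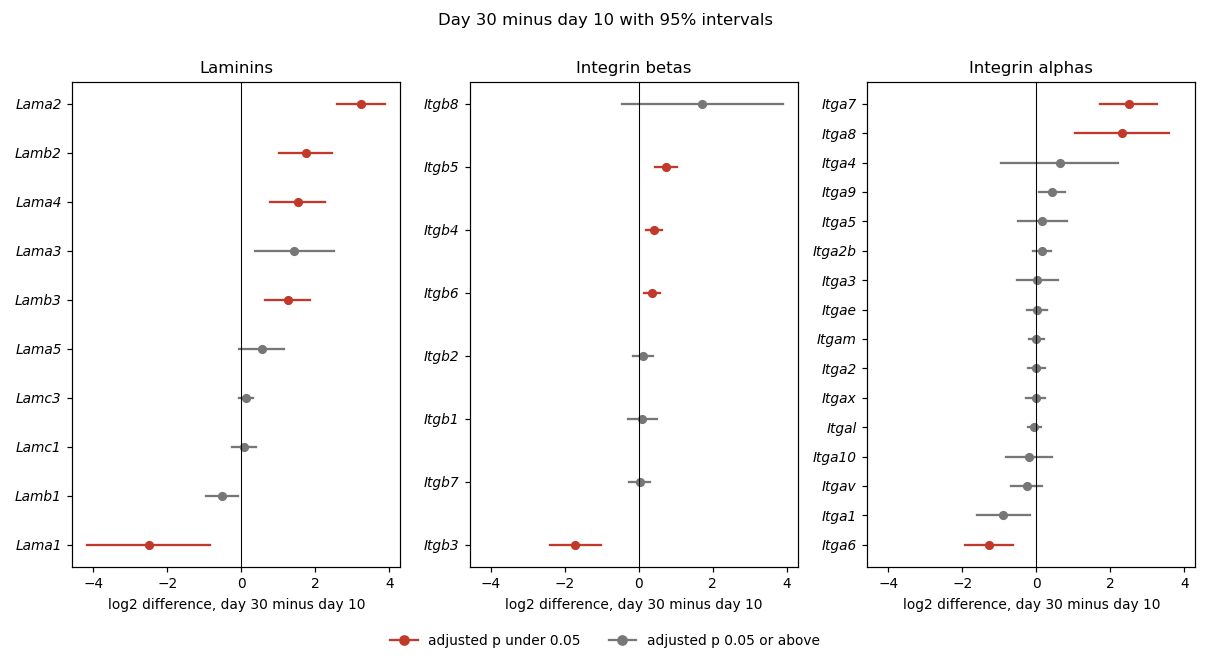
Difference in log2 signal, day 30 minus day 10, for all 34 genes in 3 families. Points are estimates from 3 arrays per day, bars are 95% intervals and red marks an adjusted p under 0.05. Lama2 (3.24) and Lama1 (-2.51) stand at the ends of the laminin panel, and Itga7 (2.49) and Itga6 (-1.28) at the ends of the alpha panel.

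Among the laminin alpha chains, Lama2 had the highest rise of all 34 genes. It encodes the chain whose loss causes a congenital muscular dystrophy. Its signal in replicates 1, 2 and 3 was 5.76, 6.47 and 6.40 at day 10, 9.22, 10.08 and 9.22 at day 20, and 9.57, 9.62 and 9.16 at day 30. The day 10 arrays lay apart from all later ones, and the arrays of day 20 and day 30 overlapped. Lama2 rose by 3.24 at day 30 against day 10, a 9.45-fold difference (SE 0.28, adjusted p = 0.000335), and by 3.30 at day 20 against day 10 (SE 0.28, adjusted p = 0.000634). Between day 20 and day 30 it differed by -0.06 (adjusted p = 0.97).

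Lama1 encodes the alpha chain of the first embryonic basement membranes. It measured 8.81, 6.78 and 5.31 at day 10, 4.36, 4.20 and 4.33 at day 20, and 4.26, 4.77 and 4.35 at day 30. The day 10 arrays were spread over more than 3 log2 units and the later arrays were close together, all of them below the lowest day 10 array. Lama1 fell by 2.51 at day 30 against day 10 (SE 0.72, 95% interval -4.16 to -0.85, adjusted p = 0.0417) and fell by 2.67 at day 20 against day 10 (adjusted p = 0.0452). The call was not stable. In both comparisons, leaving out any 1 of the same 7 arrays, which are those other than day 10 replicates 1 and 3, ended the call (adjusted p = 0.0634 to 0.114 for day 30 and 0.0642 to 0.128 for day 20). Without day 10 replicate 1 the differences were -1.58 (adjusted p = 0.0312) at day 30 and -1.75 (adjusted p = 0.0355) at day 20.

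Lama4, the alpha chain of vessel, fat and muscle basement membranes, measured 6.86, 7.35 and 8.07 at day 10, 8.45, 8.21 and 7.87 at day 20, and 9.01, 9.33 and 8.50 at day 30. Every day 30 array was above every earlier one. It rose by 1.52 at day 30 against day 10 (SE 0.33, 2.87-fold, adjusted p = 0.0139), and differed by 0.75 at day 20 (adjusted p = 0.171). Its second probe set, dimmer by about 3 units, gave 0.63 (adjusted p = 0.376), and the mean of both gave 1.08 (adjusted p = 0.0507).

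Lama3 and Lama5, which encode alpha chains best known from epithelia, were at their highest at day 20. Lama3 measured 4.57, 5.23 and 4.43 at day 10, 6.69, 8.43 and 6.60 at day 20, and 5.98, 6.41 and 6.13 at day 30, with no overlap between any of the days. It rose by 2.50 at day 20 against day 10 (SE 0.46, adjusted p = 0.0124). At day 30 it stood 1.43 above day 10 (adjusted p = 0.0614, and 0.00596 to 0.159 with 1 array left out, the lowest without day 20 replicate 2) and 1.06 below day 20 (adjusted p = 0.46). Its second probe set stayed between 4.09 and 4.13 on average at every day and gave -0.034 for day 20 against day 10 (adjusted p = 0.864). The 2 probe sets of Lama3 thus gave different results. The second was dim at every day, and whether it read the transcript is not known.

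Lama5 measured 7.67, 7.77 and 8.61 at day 10, 9.37, 9.06 and 9.39 at day 20, and 8.17, 8.77 and 8.77 at day 30. The day 20 arrays were above all others, while day 30 overlapped day 10. It rose by 1.25 at day 20 against day 10 (SE 0.27, adjusted p = 0.0214) and differed by 0.55 at day 30 (adjusted p = 0.196). With 1 array left out that difference ran from 0.37 without day 10 replicate 1 (adjusted p = 0.425) to 0.84 without day 10 replicate 3 (adjusted p = 0.0188). Its day 20 call ended on leaving out any 1 of 5 arrays, namely day 10 replicates 1 and 2 and all day 20 replicates (adjusted p = 0.0525 to 0.0718). Averaging its probe sets gave 0.75 (adjusted p = 0.0543).

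Of the beta chains, Lamb2 rose while Lamb1 did not pass the test. Lamb2 encodes the beta chain of the neuromuscular junction and of mature muscle and kidney basement membranes. It measured 7.08, 7.29 and 8.28 at day 10, 9.18, 8.85 and 9.17 at day 20, and 9.24, 8.97 and 9.66 at day 30. Each later array exceeded every day 10 array. It rose by 1.74 at day 30 against day 10 (SE 0.31, 3.34-fold, adjusted p = 0.00652) and by 1.51 at day 20 (adjusted p = 0.0178). Its day 20 call ended on leaving out day 10 replicate 2 or day 20 replicate 1 or 3 (adjusted p = 0.0581 to 0.0619).

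Lamb1, the beta chain present from the earliest embryonic laminins on, measured 10.77, 10.58 and 10.90 at day 10, 10.81, 11.07 and 10.74 at day 20, and 10.07, 10.66 and 9.97 at day 30. The day 30 arrays lay below those of day 20 but overlapped those of day 10. Its difference at day 30 against day 10 was -0.52 (95% interval -0.95 to -0.08, adjusted p = 0.0943), and with 1 array left out it ran from -0.73 without day 30 replicate 2 (adjusted p = 0.017) to -0.38 without day 30 replicate 3 (adjusted p = 0.259). Of its other 3 probe sets, all were lower at day 30 too, by 0.61 to 0.78, and 1 of them passed (-0.78, adjusted p = 0.00733).

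Lamb3, the beta chain of epithelial anchoring laminin, was read by a probe set in the lower part of the signal range. It measured 4.19, 4.06 and 4.68 at day 10, 4.97, 5.40 and 5.60 at day 20, and 5.07, 5.78 and 5.84 at day 30. It rose by 1.25 at day 30 against day 10 (SE 0.26, 2.38-fold, adjusted p = 0.0124) and by 1.01 at day 20 (adjusted p = 0.0399). For day 20, leaving out any 1 of 6 arrays, which are those other than replicate 3 of day 10 and replicate 1 of days 20 and 30, ended the call (adjusted p = 0.0531 to 0.123).

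Neither gamma chain described here showed a called difference. Lamc1, the gamma chain shared by most laminins, lay between 9.66 and 10.20 on all 9 arrays, and differed by 0.07 at day 30 against day 10 (95% interval -0.26 to 0.41, adjusted p = 0.783). Its second probe set, with a mean of 6.94, gave -0.55 (adjusted p = 0.184). Lamc3, a gamma chain of nerve and brain surface laminins, lay between 4.57 and 4.88, with a difference of 0.13 (adjusted p = 0.293).

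**Figure D2:**
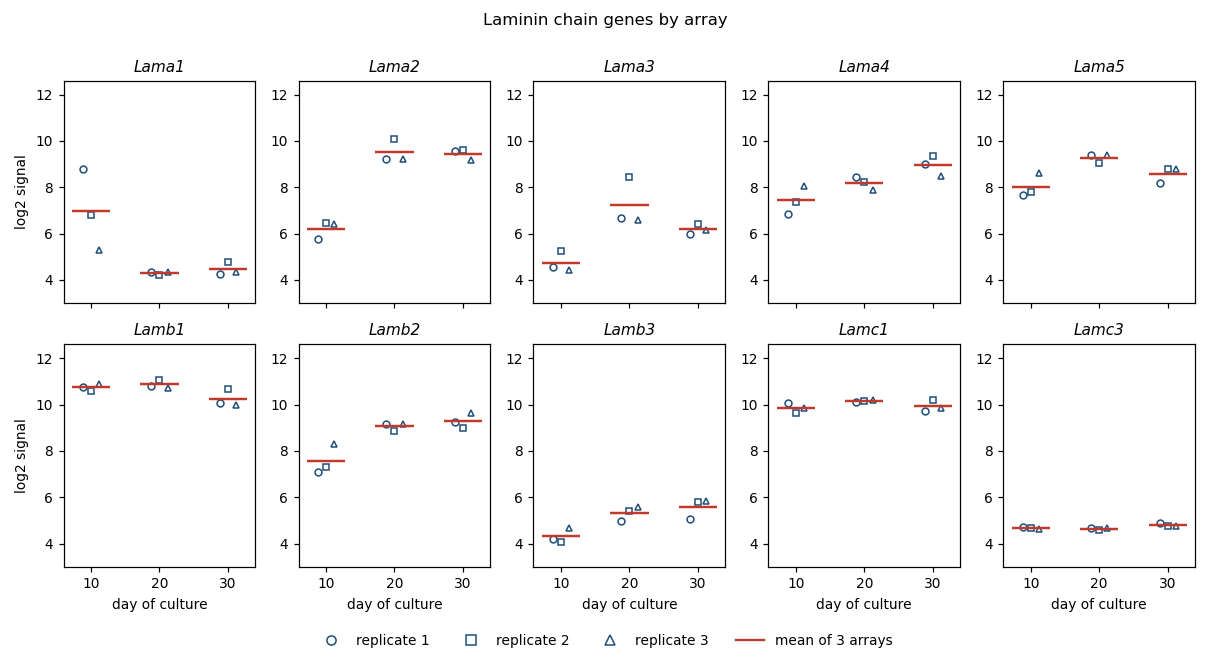
Log2 signal of the 10 laminin chain genes on each of 9 arrays against the day of culture. Symbols mark replicates 1 to 3 and red lines the mean of 3 arrays. Lama2 and Lamb2 lie higher at days 20 and 30 than at day 10, Lama1 lies lower with widely spread day 10 arrays (5.31 to 8.81), Lama3 and Lama5 peak at day 20, and Lamc1 stays between 9.66 and 10.20.

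Of the integrin alphas that bind laminin, Itga7 rose, Itga6 fell and Itga3 did not pass the test. Itga7 encodes the laminin receptor subunit typical of differentiated skeletal and cardiac muscle. It measured 5.79, 5.54 and 5.67 at day 10, 6.99, 7.78 and 7.25 at day 20, and 7.54, 8.92 and 8.02 at day 30. All day 10 arrays were below all later ones. Itga7 rose by 2.49 at day 30 against day 10 (SE 0.34, 5.63-fold, adjusted p = 0.00205), the steepest rise among the integrins, and by 1.67 at day 20 (adjusted p = 0.0166). Leaving out day 10 replicate 2 (adjusted p = 0.0538) or day 20 replicate 2 (adjusted p = 0.0618) ended the day 20 call.

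Itga6, whose subunit is the laminin receptor of stem cells, epithelia and early myocardium, measured 10.72, 10.00 and 10.57 at day 10, 8.85, 8.26 and 9.39 at day 20, and 9.23, 9.16 and 9.07 at day 30. Every day 10 array was above every later array. Itga6 fell by 1.28 at day 30 against day 10 (SE 0.28, adjusted p = 0.0159) and fell by 1.59 at day 20 (SE 0.28, adjusted p = 0.0108). Without day 30 replicate 3 the day 30 difference was -1.23 (adjusted p = 0.0546). Its second probe set gave -1.15 (adjusted p = 0.0336). Itga3, the epithelial laminin receptor subunit, lay between 6.69 and 7.64 on all arrays and differed by 0.03 at day 30 (95% interval -0.52 to 0.58, adjusted p = 0.953).

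Itgb1 encodes the beta1 subunit, the partner of all 3 of these alphas and of most matrix-binding integrins in muscle. It measured 11.75, 11.41 and 11.88 at day 10, 12.07, 11.49 and 11.78 at day 20, and 11.66, 11.84 and 11.84 at day 30, with overlap among all days. The difference at day 30 against day 10 was 0.10 (95% interval -0.29 to 0.49, adjusted p = 0.739). Its 6 probe sets did not behave alike. The 2 brightest gave 0.10 and 0.04, whereas the third, of a kind (x_at) that may also bind other transcripts, gave 1.18 (adjusted p = 0.0227). The third had a mean of 9.79. The remaining sets were dim, with means of 3.31 to 3.61, and gave -0.03 to 0.11.

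Several integrins that recognise RGD sequences contain the alpha v subunit. Itgav, which encodes the alpha v subunit, lay between 10.99 and 11.78 on all arrays, with a difference of -0.26 at day 30 against day 10 (95% interval -0.67 to 0.16, adjusted p = 0.37). Among the betas that pair with it, Itgb3 fell and Itgb5 rose. Itgb3, the vitronectin receptor subunit of platelets, osteoclasts and growing vessels, measured 7.61, 6.52 and 7.78 at day 10, 6.07, 5.60 and 5.89 at day 20, and 5.61, 5.64 and 5.52 at day 30. Its day 10 arrays were all above the later ones, and it fell by 1.71 at day 30 against day 10 (SE 0.30, adjusted p = 0.00595) and fell by 1.45 at day 20 (adjusted p = 0.018). A dimmer probe set gave -0.70 (adjusted p = 0.0041). Its day 20 call ended on leaving out day 10 replicate 1 or day 20 replicate 2 or 3 (adjusted p = 0.0544 to 0.0701), and in a fit of those 2 days alone (adjusted p = 0.062).

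Itgb5, the other vitronectin receptor subunit, measured 9.88, 10.02 and 9.97 at day 10, 10.64, 10.53 and 10.65 at day 20, and 10.40, 10.88 and 10.79 at day 30. Replicates of a day lay within 0.5 of each other and no later array reached down to day 10. It rose by 0.73 at day 30 against day 10 (SE 0.13, 1.66-fold, adjusted p = 0.00606) and by 0.65 at day 20 (adjusted p = 0.0159, and 0.0517 and 0.0566 without day 20 replicate 1 or 3). All 4 of its probe sets gave a rise at day 30, of 0.68 to 0.84. Those that gave 0.84 and 0.76 are of the x_at kind, which may also bind other transcripts.

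Itgb8, whose subunit activates latent TGF-beta, measured 6.53, 7.62 and 4.93 at day 10, 7.09, 8.69 and 6.65 at day 20, and 7.89, 9.73 and 6.58 at day 30. The spread within a day was wide and the days overlapped. The difference of 1.71 at day 30 against day 10 did not pass (95% interval -0.47 to 3.89, adjusted p = 0.249). Leaving out 1 array gave values between 0.88 (day 30 replicate 2 left out) and 2.46 (day 30 replicate 3 left out), with 0.997 when day 10 replicate 3 was left out. Array weights gave 0.44, and none of these values passed the threshold. Itgb6, the epithelial partner of alpha v, was near the bottom of the range. It measured 3.57, 3.64 and 3.69 at day 10, 3.75, 3.73 and 3.84 at day 20, and 3.91, 3.90 and 4.14 at day 30, with no overlap between days. It rose by 0.35 at day 30 against day 10 (SE 0.09, adjusted p = 0.0316), but its second probe set gave 0.18 (adjusted p = 0.153). With each array centred on its median, Itgb6 differed by 0.19 (adjusted p = 0.178). Leaving out any 1 of 6 arrays, which are those other than replicate 3 of days 10 and 20 and replicate 2 of day 30, also ended the call (adjusted p = 0.05 to 0.0926).

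Itga8 encodes the receptor subunit for nephronectin, a matrix protein, and is known from smooth muscle and fibroblast-like cells. It measured 7.66, 8.98 and 6.70 at day 10, 10.13, 9.12 and 8.91 at day 20, and 9.69, 10.47 and 10.12 at day 30. Day 30 was wholly above day 10, while day 20 overlapped both. It rose by 2.31 at day 30 against day 10 (SE 0.56, 4.97-fold, adjusted p = 0.0218) and differed by 1.61 at day 20 (adjusted p = 0.0952). The call ended on leaving out day 10 replicate 1 or day 30 replicate 2 or 3 (adjusted p = 0.0571 to 0.0718), and with array weights the rise was 1.44 (adjusted p = 0.0429). Its second probe set rose by 1.98 (adjusted p = 0.0322). Itga5, which encodes the fibronectin receptor subunit, differed by 0.16 (95% interval -0.50 to 0.83, adjusted p = 0.746), and Itga2b, the platelet subunit, by 0.15 (adjusted p = 0.382).

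**Figure D3:**
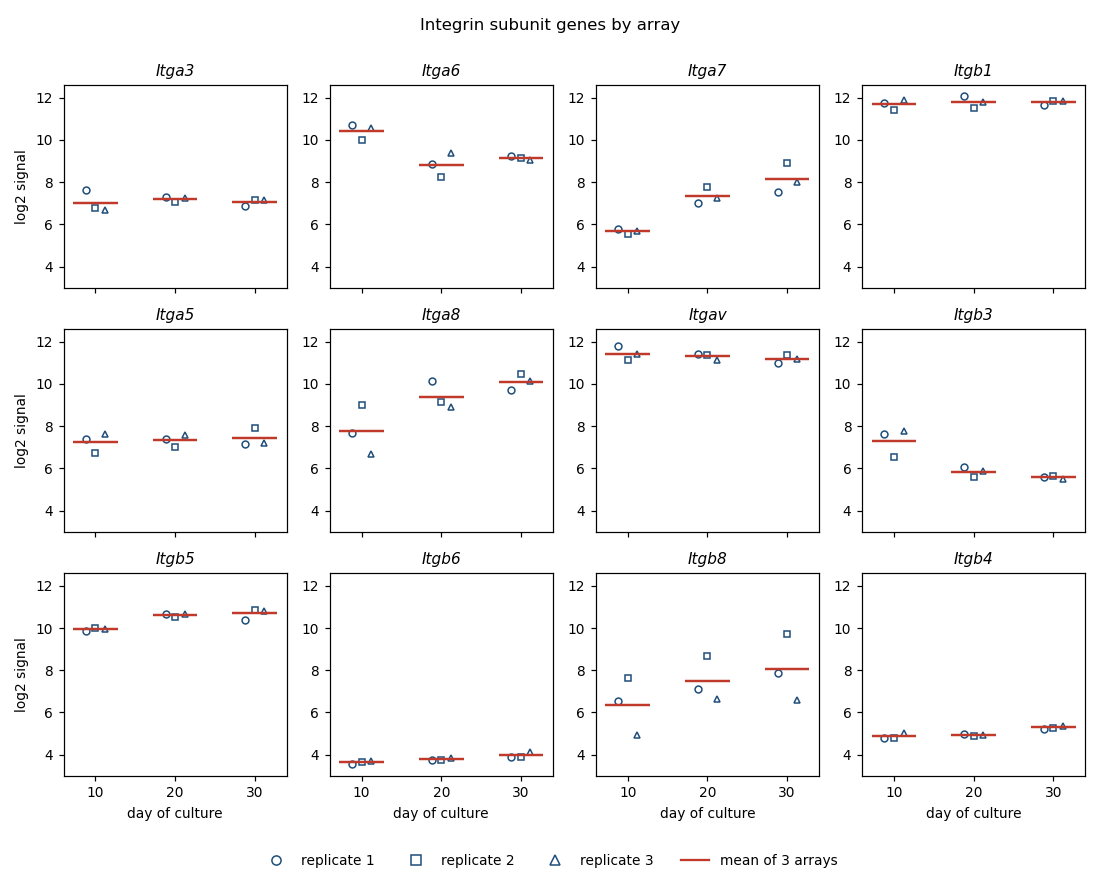
Log2 signal of 12 integrin subunit genes on each of 9 arrays against the day of culture, with replicates as symbols and means of 3 arrays as red lines. Itga7, Itga8 and Itgb5 lie higher at day 30 than at day 10, Itga6 and Itgb3 lie lower, Itgb1 and Itgav stay flat near the top of the range, and Itgb8 keeps replicate 2 highest and replicate 3 lowest at every day.

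Starts of genes that moved are set here beside that of a subunit gene that was not called. Sequence just upstream of the gene is shown for 4 members, 3 that rose (Lamb2, Itga8 and Itgb5) and Itgb1, which did not pass the test. Each is 150 bases ending at the base before the outermost annotated start, from the RefSeq promoter table of GRCm38.p6, written 5′ to 3′ on the strand of the gene. Of the 34 members, 22 are in that table and 15 have such a window in it. Capitals mark matches on either strand to TATAAA (read by TBP), GGGCGG (the GC box), CCAAT (read by NF-Y), GGAATG (read by TEAD factors), TGANTCA (read by AP-1) and CANNTG (the E-box), none of which overlap in these sequences.
Lamb2, chr9:108479697-108479846, plus strand: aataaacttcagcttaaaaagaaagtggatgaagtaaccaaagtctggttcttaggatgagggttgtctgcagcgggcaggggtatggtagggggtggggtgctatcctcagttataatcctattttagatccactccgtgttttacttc
Itga8, chr2:12301986-12302135, minus strand: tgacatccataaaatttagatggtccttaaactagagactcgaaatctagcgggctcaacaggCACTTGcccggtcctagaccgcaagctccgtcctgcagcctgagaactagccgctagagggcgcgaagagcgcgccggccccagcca
Itgb5, chr16:33829515-33829664, plus strand: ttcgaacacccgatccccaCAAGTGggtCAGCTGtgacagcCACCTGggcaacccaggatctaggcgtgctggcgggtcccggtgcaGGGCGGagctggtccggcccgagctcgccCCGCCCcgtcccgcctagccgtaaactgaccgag
Itgb1, chr8:128685504-128685653, plus strand: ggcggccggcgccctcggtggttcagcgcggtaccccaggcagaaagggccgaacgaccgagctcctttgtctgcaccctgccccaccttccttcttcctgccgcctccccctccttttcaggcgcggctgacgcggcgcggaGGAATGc

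The 4 stretches differ in base composition. Lamb2 has 44% G and C and 2 CG pairs, Itga8 57.3% and 11, Itgb5 69.3% and 14, and Itgb1 70% and 16, against medians of 52.7% and 3 over the 22803 windows taken the same way. Itgb5 holds 2 GC boxes and 3 E-boxes, Itga8 1 E-box, Itgb1 1 TEAD motif, and Lamb2 none of the letters searched. A GC box is found in 25.7% of all windows, an E-box in 48.6%, the TEAD motif in 7.73%, the NF-Y motif in 25.7%, the TBP motif in 8.64% and the AP-1 motif in 4.41%. Other members that rose at some day and have a window, not printed here, are Itgb6 with 2 E-boxes and Lama5 with 2 GC boxes and 1 E-box. A match of letters is a description only.

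The collagen-binding alphas did not pass the test. Itga1, a collagen receptor subunit of mesenchymal cells and muscle, measured 8.37, 7.87 and 7.74 at day 10, 7.72, 7.63 and 7.72 at day 20, and 6.50, 7.82 and 7.00 at day 30. Its difference at day 30 against day 10 was -0.89 (95% interval -1.60 to -0.18, adjusted p = 0.0791), and with 1 array left out it ran from -1.24 without day 30 replicate 2 (adjusted p = 0.0124) to -0.58 without day 30 replicate 1 (adjusted p = 0.205). Itga1 passed with quantile normalization (-0.97, adjusted p = 0.0472) and with each array centred on its median (-1.05, adjusted p = 0.0288). With array weights it passed too (-0.93, adjusted p = 0.0239). Of 18 alternatives in all, 14 left Itga1 uncalled. Its second probe set gave -1.22 (adjusted p = 0.0558). Itga2, a collagen receptor subunit of epithelia and platelets, lay between 4.19 and 4.43, and Itga10, that of cartilage, between 4.91 and 6.14.

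Itga4 and Itga9, whose subunits bind fibronectin, VCAM1 and tenascin, did not pass the test either. Itga4 measured 6.12, 8.22 and 7.14 at day 10, 9.42, 8.88 and 8.42 at day 20, and 6.37, 8.23 and 8.76 at day 30. The day 20 arrays were above those of day 10, by 1.75 on average (adjusted p = 0.136), while day 30 spanned the values of both other days. The 4 brightest of its 5 probe sets gave 0.93 to 1.75 for day 20 against day 10, and the dimmest gave -0.09. Itga9 lay between 7.55 and 7.66 at day 10, between 7.76 and 8.26 at day 20 and between 7.79 and 8.20 at day 30. Both later days were above day 10, by 0.40 (adjusted p = 0.123) and 0.43 (adjusted p = 0.0813), and the mean of its probe sets passed for day 20 (0.54, adjusted p = 0.0361).

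Integrin subunits of white blood cells stayed at low signal. Itgal, Itgam, Itgax and Itgae, which encode leukocyte alphas, lay between 3.53 and 5.23 on all arrays, and Itgb2 and Itgb7, their beta partners, between 3.85 and 6.17. None passed in any comparison, and their differences at day 30 against day 10 ran from -0.05 (Itgal) to 0.11 (Itgb2). The blood marker list (6 measured genes, Ptprc among them) averaged 4.89 to 5.30 at day 30 and 4.93 to 5.20 at day 10. Itgb4, the beta subunit of hemidesmosomes, measured 4.81, 4.80 and 5.05 at day 10, 4.996, 4.88 and 4.95 at day 20, and 5.23, 5.28 and 5.36 at day 30. The day 30 arrays were above all earlier ones. It rose by 0.40 at day 30 against day 10 (SE 0.10, adjusted p = 0.0201), but differed by 0.24 with each array centred on its median (adjusted p = 0.116). Leaving out any 1 of 4 arrays, day 10 replicates 1 and 2 and day 30 replicates 2 and 3, also ended the call (adjusted p = 0.0552 to 0.0705), as did a fit of those 2 days alone (adjusted p = 0.0595).

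Between day 20 and day 30, 0 of the 34 genes passed the test in limma, and 0.335% of all genes did (0.291% higher and 0.044% lower). At an unadjusted p under 0.05 there were 6 of the 34. The share of all genes at that threshold was not counted, so no conclusion is drawn from this number. Arrays of day 30 lay wholly above those of day 20 in 4 members and wholly below in 4, as in 11.7% and 9.72% of all genes. The largest differences in the later interval were those of Itga4 (-1.12), Lama3 (-1.06), Itga7 (0.82), Lama4 (0.77), Itga8 (0.71) and Lama5 (-0.70), with adjusted p-values between 0.389 and 0.728. Lama2 was the only member whose later change differed from its earlier change by the test of that difference (-3.36, SE 0.49, adjusted p = 0.0379), where 0.478% of all genes passed and 0.324% did so in that direction. That call ended on leaving out any 1 of 7 arrays, which are those other than day 10 replicates 1 and 3 (adjusted p = 0.0507 to 0.126). Over all 3 days together, 12 of the 34 genes differed (moderated F test), as did 17.5% of all genes.

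Other genes of the same pathway were counted in 4 lists, which were written with earlier results of these data known. The counts describe these lists only. Of 25 measured integrin adaptors, 4 rose and 3 fell at day 30 against day 10, with a median of -0.06, where 11.2% of all genes rose and 9.92% fell. Tns1, which encodes tensin 1, a link between integrins and actin, rose by 2.48 (adjusted p = 0.00129), Tns3, another tensin gene, by 1.24, Pxn, which encodes the focal adhesion scaffold paxillin, by 0.92, and Lims1, which encodes the kinase-binding adaptor PINCH1, by 0.58. The genes that fell, named after their values were seen, were Ilk (-0.44), the gene of integrin-linked kinase, Tgfb1i1 (-0.56), a paxillin relative, and Itgb1bp2 (-1.61, adjusted p = 0.0384), which encodes melusin, a muscle protein that binds the beta1 tail.

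In the list of 16 basement membrane partners 5 genes rose, against 11.2% of all genes, and none fell, against 9.92%, with a median of 0.72. Col15a1, a collagen gene of muscle and vessel basement membranes, rose by 3.03 (SE 0.35, adjusted p = 0.00103), the matrix glycoprotein gene Sparc by 1.18, the network collagen gene Col4a2 by 0.68 and Ntn1, which encodes the laminin-related guidance protein netrin 1, by 1.79. Of 16 measured genes of other laminin receptors and the dystrophin complex, 8 rose and 1 fell, against 11.2% and 9.92% of all genes, with a median of 0.91. Sdc2, Sdc3 and Sdc4, which encode syndecans, rose by 1.89, 1.81 and 2.57, and Sgcb, the beta-sarcoglycan gene, by 1.49 (adjusted p = 0.00102). The 1 that fell, named after its value was seen, was Rpsa (-0.47, adjusted p = 0.00955), which encodes a ribosomal protein also described as a laminin receptor. Of 17 other integrin ligands 9 rose and none fell, against 11.2% and 9.92% of all genes, with a median of 1.48, among them Col1a1 (6.28), Fbln5 (6.96), Postn (4.59) and Col3a1 (3.48), genes of fibrillar and matricellular proteins. Col1a1, Col3a1 and Postn are also in the fibroblast marker list given below. In these bulk samples, fewer cells of a type and less RNA per cell cannot be told apart.

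Markers of other cell types moved over the same days. Of 8 fibroblast genes (Col1a1, Col1a2, Col3a1, Dcn, Lum, Pdgfra, Postn and Tcf21), 7 rose at day 30 against day 10 and none fell, and their mean signal was 12.02 to 12.21 at day 30 and 7.09 to 8.06 at day 10. At day 20 it was 10.40 to 11.62, between those of the other days. The 9 members that rose were picked by that same comparison, so their shared direction with this list was set by that choice. The part of the fibroblast list in their changes was not tested. Of 8 endoderm and epithelium genes 3 fell and 1 rose. Krt8 fell by 3.58, Krt18 by 4.18 and Cdh1 by 2.45, and Epcam rose by 1.49. The list averaged 5.18 to 5.31 at day 30 and 6.11 to 6.79 at day 10. Over day 10 replicates 1, 2 and 3 it averaged 6.79, 6.11 and 6.26, while Lama1 measured 8.81, 6.78 and 5.31 and Itga6 measured 10.72, 10.00 and 10.57. Its part in the falls of Lama1 and Itga6 was not tested.

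Of 7 endothelial genes 1 fell (Kdr, -1.13, adjusted p = 0.0165), and the list averaged 4.68 to 5.01 at day 30 and 4.78 to 6.40 at day 10. Over day 10 replicates 1, 2 and 3 the list averaged 4.78, 5.57 and 6.40, while Itgb3 measured 7.61, 6.52 and 7.78. Replicate 3 was highest for both, and the lowest array was not the same. The part of the endothelial list in the fall of Itgb3 was not tested. The smooth muscle and pericyte list, of 6 genes, had 1 rise (Pdgfrb, 3.15) and 2 falls (Acta2, -1.04, and Cnn1, -2.75), and averaged 8.94 to 10.20 at day 30 and 9.36 to 9.79 at day 10. The 5 measured neural and glial genes averaged 5.14 to 5.25 at day 30 and 5.70 to 6.44 at day 10, with falls of Nes and Sox2. Over day 10 replicates 1, 2 and 3 this list averaged 6.44, 6.27 and 5.70, in the same order as Lama1. The blood list (5.20, 5.05 and 4.93) and the epicardial list (5.49, 4.82 and 4.35) had that order too. The part of the neural and glial list in the fall of Lama1 was not tested. The 5 epicardial genes averaged 5.13 to 6.11 at day 30 and 4.35 to 5.49 at day 10 with no call.

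**Figure D4:**
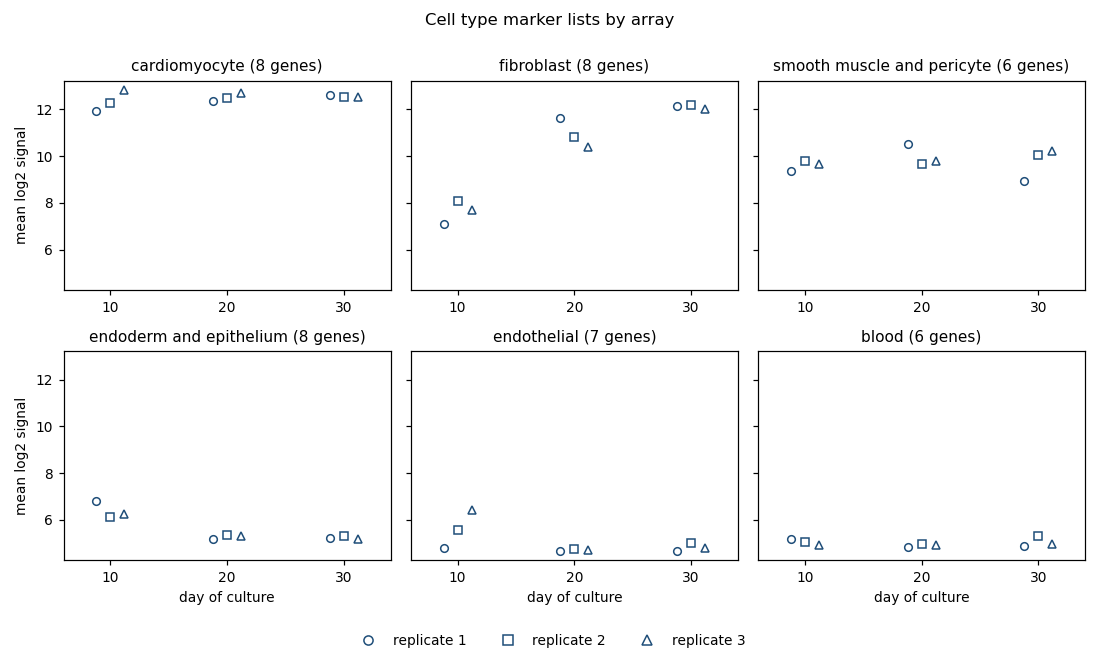
Mean log2 signal of 6 lists of cell type markers on each of 9 arrays against the day of culture, with replicates as symbols. The cardiomyocyte list stays between 11.92 and 12.82, the fibroblast list lies at 7.09 to 8.06 at day 10 and 12.02 to 12.21 at day 30, and the blood list stays between 4.86 and 5.30.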

How the data were processed

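RNA of 9 samples was read on 1-colour 3 prime arrays. The deposited table holds log2 signals made by the authors, with 1 value for each probe set on each array. Per the labels' protocols, TRIzol was used to isolate RNA, and biotin labelling used a 3 prime in vitro transcription kit. The normalization is not given in the sources used here, and the base of the logarithm was inferred from the range (2.775 to 14.52). The medians of the arrays spanned 0.0746, and values were used as deposited. Without scanner files, background could not be judged by probe, and the number of arrays limits the precision.

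Of 45101 probe sets, 64 controls were left out and 34945 others had 1 symbol. Each of 18193 genes was represented by its brightest probe set, with no filter on low signal. A mean per day was fitted with limma 3.58.1 in R 4.3.3 (lmFit, eBayes, 6 residual and 2.18 prior degrees of freedom), two-sided, with Benjamini-Hochberg adjustment over all genes and a threshold of 0.05. On simulated data for day 30 against day 10 (18193 genes), the fit called 68 of 100 genes given a 2-fold change and 92 of 100 given a 4-fold change. Among its 168 calls, 8 were false. Only these 200 genes were changed, and each gene had the same spread at every day. In the data 21.1% of genes passed, and the median SD of all genes was 0.19 at day 10 and 0.14 at day 30. The simulated shares therefore need not hold for the data.

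Every member that passed between days is given in full, with Itgb1, Itga6, Itga7, Lama1, Lama2, Lama4, Lamb1, Lamb2 and Lamc1 in any case and the others by level or range. Up to 4 genes of each pathway list are named, in order of adjusted p. The members, lists, roles and tests were chosen with earlier results of these data known. Alternatives were other normalizations, probe set choices, filters and spread models, the replicate block, and leaving out each array.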

Additional observations from a re-analysis of the deposited data

Results flagged for a closer look

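The later change of Lama2, day 30 minus day 20, differed from its earlier change, day 20 minus day 10, by -3.36 (log2, limma, adjusted p = 0.0379). It stood 3.30 higher at day 20 than at day 10, with every array of day 20 above those of day 10, and differed by -0.06 at day 30 against day 20. The test of this difference missed the threshold without each of 7 arrays, all but day 10 replicates 1 and 3 (adjusted p = 0.0507 to 0.126), where the value ran from -3.64 to -2.78.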

How the results depend on the processing

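Lama2, Itga7, Lamb2, Lamb3, Itgb3 and Itgb5 kept their direction and their call at day 30 against day 10 under every alternative tried for them. Between day 20 and day 30 the number of members called was 0 under each. Leaving out 1 array at a time gave 6 to 10 members that rose and 1 to 4 that fell at day 30 against day 10, 3 to 8 and 1 to 3 at day 20 against day 10, 7 to 12 over all days, and 0 to 5 for the later against the earlier change. The counts of all genes called then ran from 2572 to 5084 for day 30 against day 10, 1014 to 4646 for day 20 against day 10, 5 to 160 for day 30 against day 20, 0 to 1725 for the later against the earlier change and 1932 to 5047 over all days, with the highest count without day 10 replicate 3 in each of these 5. With array weights they were 6126, 5612, 311, 1912 and 6429 in the same order, and 5 members passed for the later against the earlier change. In fits of only the 2 days compared, 1326 genes and 1 falling member passed at day 20 against day 10. With only genes above the median of gene means, 1 member fell in each comparison with day 10, since the dim members Lama1 and Itgb3 were not tested, and 14 genes passed at day 30 against day 20. That count was 33 with quantile normalization, 38 with each array centred on its median, and 33 with the replicate block. Centring moved the median of all genes at day 30 against day 10 to -0.19, against -0.03 as deposited, and 5 members fell. The second probe set of Lama3, dim at every day and chosen as an alternative after seeing the data, gave -0.034 at day 20 against day 10. The labels do not say whether the replicate numbers pair the arrays. Same-numbered arrays of different days had deviations correlated at -0.15 to 0.43, and differently numbered ones at -0.46 to 0.24. These ranges overlap, so they cannot settle whether the numbers pair the arrays. With the replicate block, Lama1 missed the threshold at day 30 and at day 20 (adjusted p = 0.0508 and 0.0547), while Itgb8 (1.71, adjusted p = 0.00763) and Lama3 (1.43, adjusted p = 0.0208) passed at day 30, and Itgb8 at day 20 (1.12, adjusted p = 0.0384). Causes were not tested.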

Other observations

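Itgb8 had the same order of replicates at every day, with replicate 2 highest (9.73 at day 30, 8.69 at day 20 and 7.62 at day 10) and replicate 3 lowest (6.58, 6.65 and 4.93). Whether replicate numbers pair the arrays across days is not known.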
